A study of Mus musculus with 4 samples.

Results

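The nuclear genes of the mitochondrial respiratory chain and of ATP synthase were examined in cultured primary mouse pancreatic ductal cells. Members were chosen by gene symbol alone, as every symbol beginning with Ndufa, Ndufb, Ndufc, Ndufs, Ndufv, Uqcr, Cox4 to Cox8 or Atp5, together with Sdha, Sdhb, Sdhc and Sdhd. This gave 90 of the 22869 gene symbols in the tables, on 99 of 28644 RefSeq transcripts, and for each gene the transcript with the highest mean count was used. RNA-seq had been done on ductal cells of adult C57BL/6 mice. The control group (2 animals) carried floxed Hhex alleles (HhexL/L) and no Cre, and the other group (2 littermates of the controls, labelled knockout) carried the same alleles with Sox9CreER, a tamoxifen-inducible Cre under the promoter of the ductal gene Sox9. All 4 cultures, controls included, received 500 nM 4-hydroxytamoxifen for 4 days in vitro. No group carried the Cre without floxed alleles, so an effect of the Cre and one of Hhex loss cannot be told apart.

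The respiratory chain lies in the inner mitochondrial membrane. Complex I takes electrons from NADH and complex II from succinate, complex III passes them to cytochrome c, and complex IV gives them to oxygen. Complexes I, III and IV pump protons, and complex V, the ATP synthase, lets protons flow back to make ATP. Most subunits are encoded in the nucleus, and a small set in mitochondrial DNA, which was not analysed here. Ductal epithelium spends ATP on bicarbonate and fluid secretion.

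The 4 libraries held 25257778 to 39582625 counts. Levels of a gene across libraries are given as CPM, counts scaled to library size with TMM factors. Hhex itself stood at 24.8 and 17.7 CPM for the control pair, against 23.6 and 39.0 CPM for the labelled knockouts. It was therefore not lower there (log2 fold change 0.55 ± 0.27 SE, edgeR adjusted p = 0.734), which exons are floxed is not given in the sources used here, and the group is called "labelled knockout" throughout. Without replicate 1 of that group the Hhex value was 0.84, and without replicate 2 it was 0.12, each on a lone labelled knockout library. Ductal markers were abundant, with Krt8 between 3521 and 4336 CPM and Epcam between 430 and 510 CPM. Summed over 10 acinar genes the level was 2.84 to 5.502 CPM, over 10 endocrine genes 3.20 to 6.78 CPM and over 6 endothelial genes 2.65 to 9.36 CPM, and Amy2a5 was at 0 in every library. Summed over 10 fibroblast genes the level was 37.2 and 41.2 CPM for the control pair, against 48.4 and 59.0 CPM for the labelled knockouts. That order came from Vim alone, and the other 9 summed to 24.9 and 21.4 CPM against 9.35 and 11.1 CPM. Of the 8 fibroblast genes tested, 7 had log2 fold changes below 0 (median -0.74), and none was called. Summed over 9 leukocyte genes the level was 13.1 and 13.7 CPM against 18.3 and 8.42 CPM, and without Cd68 it was 5.72 and 2.88 CPM against 2.12 and 4.48 CPM. The part of these cells in the results was not tested. Xist, which marks an inactive X, was at 304 CPM in labelled knockout replicate 2 and at most at 1.75 CPM elsewhere, so the sexes were not balanced between the groups.

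Respiratory chain genes were among the more abundant transcripts of these cells and differed little between the groups. No member passed the test for a difference. Levels compared between genes are given as RPKM (reads per kilobase of transcript, scaled to library size), which corrects for length. The median of the 90 genes was 48.9 RPKM, against 0.810 RPKM over all 22869 genes, and 31 members ranked among the 500 highest genes. Of the 74 subunits that are not tissue or state isoforms, 43 stood above 50 RPKM and 5 below 10 RPKM.

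The catalytic part of ATP synthase led the list. Atp5b, the catalytic beta subunit, was listed at 336 and 399 RPKM for the control pair, against 437 and 400 RPKM for the labelled knockouts, rank 46 of all genes. Cox4i1, the regulatory subunit of complex IV, followed at 308 and 336 RPKM against 323 and 337 RPKM. Cox4i1 thus sat at nearly the same level in all 4 libraries, while Atp5b was lowest in control replicate 1. Cox6b1, which holds the complex IV dimer together, had 270 and 311 RPKM for the control pair, against 368 and 313 RPKM for the labelled knockouts. Among complex III genes the hinge protein gene Uqcrh was highest, with a mean of 205 RPKM, and Uqcr10 followed with 137. In complex I the accessory subunit genes Ndufb6 (mean 146 RPKM, with 39.0% exon overlap with another gene) and Ndufa7 (137 RPKM) were among the highest. The core subunit gene Ndufs3 was listed low at 8.41 RPKM, with 39.7% of its 50-base stretches also found in transcripts of other genes. The core flavoprotein subunit gene Ndufv1 had a mean of 41.7 RPKM. The 4 complex II genes lay close together, from 48.9 RPKM for Sdha, the flavoprotein subunit, to 85.6 RPKM for the membrane anchor gene Sdhd.

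Very low values went with sequence shared with other genes. For each member the share of 50-base stretches that also occur in transcripts of another gene, mostly processed pseudogenes or overlapping genes, was computed from GENCODE M21. The 40 common subunit genes with less than 5% shared sequence had a median of 76.2 RPKM. The 7 genes with at least 50% had a median of 16.6 RPKM. Atp5g2 and Atp5l, 2 subunit genes of the membrane part of ATP synthase, had the largest shares, 87.4% and 84.8%. They were also the genes of this set listed at 0.672 and 2.29 RPKM, with 9 to 34 and 34 to 58 counts per library. Atp5g1, Cox7c, Ndufa12, Atp5h and Atp5o make up the other 5, at 9.92, 16.6, 20.8, 57.2 and 48.9 RPKM. For Atp5o, with a share of 50.3%, matches to a second GENCODE entry also named Atp5o were counted. Its place among the 7 is therefore uncertain. How the authors counted reads with several matches is not given in the sources used here, so the levels of these 7 are uncertain. The same holds to a lesser degree for genes with smaller shares, such as Ndufs3 at 39.7%. Ndufab1, the mitochondrial acyl carrier protein, was also low at 2.62 RPKM, with a share of 12.3% over a GENCODE transcript of 3479 bases. Its CPM set beside its RPKM implies that a much shorter transcript was counted, so that share is uncertain. Lengths also differ in this way, in either direction, for Ndufb4 and Ndufa11, whose shares are likewise uncertain. Of the 90 members, 22 overlap exons of another gene over more than 5% of their length. Among them is Cox4i1, over 18.0% with Emc8, called Cox4nb in the tables, although the Cox4nb transcript used here did not overlap Cox4i1. Since the treatment of strand is not given, reads within the overlapped stretches cannot be assigned to 1 gene.

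**Figure D1:**
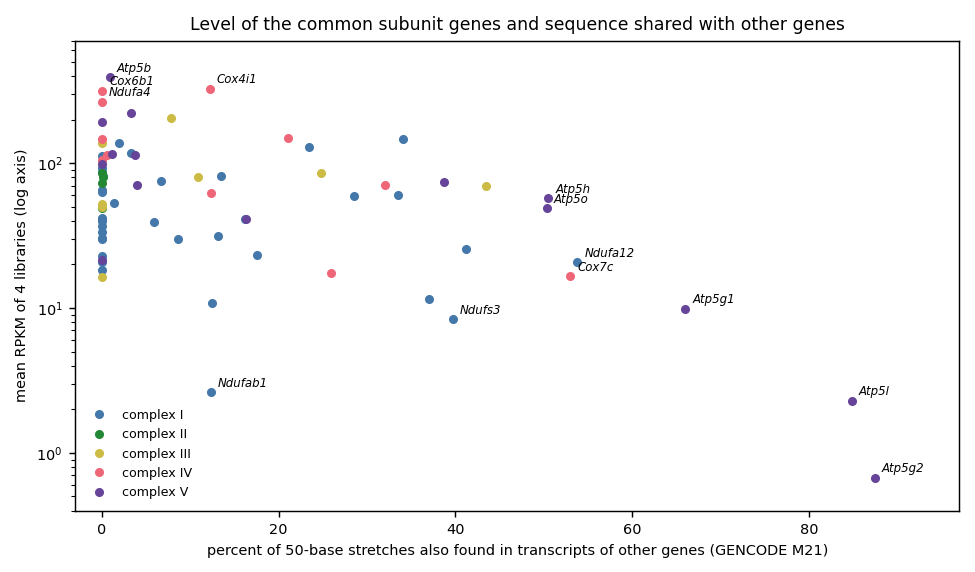
Mean RPKM over 4 libraries (log axis) of 74 common subunit genes against the percent of their 50-base stretches found in transcripts of other genes, coloured by complex. The 3 genes with the highest shares, Atp5g1, Atp5l and Atp5g2, sit at 9.92, 2.29 and 0.672 RPKM, while genes near 0% reach 393 RPKM.

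The labelled knockouts were compared with the controls. Hhex counts were not lower there and no group carried the Cre alone, so a dependence of these genes on Hhex cannot be read from the comparison. Of the 90 members, 86 passed the filter on low counts, and edgeR called 0 of them over the 20949 transcripts tested. Among all of them 0.105% of transcripts were called higher and 0.0477% lower. At an unadjusted p under 0.05 there was 1 member, Cox7a1, where 7.51% of all transcripts had such a p. DESeq2 also called 0 members and 1.67% of all transcripts with an adjusted p. The adjusted p of the members in edgeR ran from 0.508 to 0.997.

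The fit was precise enough to bound most differences. For 79 of the 86 members the 95% interval of the fold change lay within 2-fold in either direction, and for 65 within 1.5-fold. The 7 with wider intervals were Ndufab1, Ndufb4, Cox4i2, Cox7a1, Ndufa4l2, Atp5g2 and Atp5l, which had 9 to 160 counts in control replicate 1. Log2 fold changes ran from -0.92 for Cox4i2 to 1.23 for Cox7a1, with a median of 0.07 (1.05-fold), beside -0.01 over all 15892 genes tested. Within a group the libraries differed less for members than for genes at large, with a median SD of log2 CPM of 0.13 against 0.21. The members tested were also more abundant, with a median of 51.4 CPM against 13.3 CPM.

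**Figure D2:**
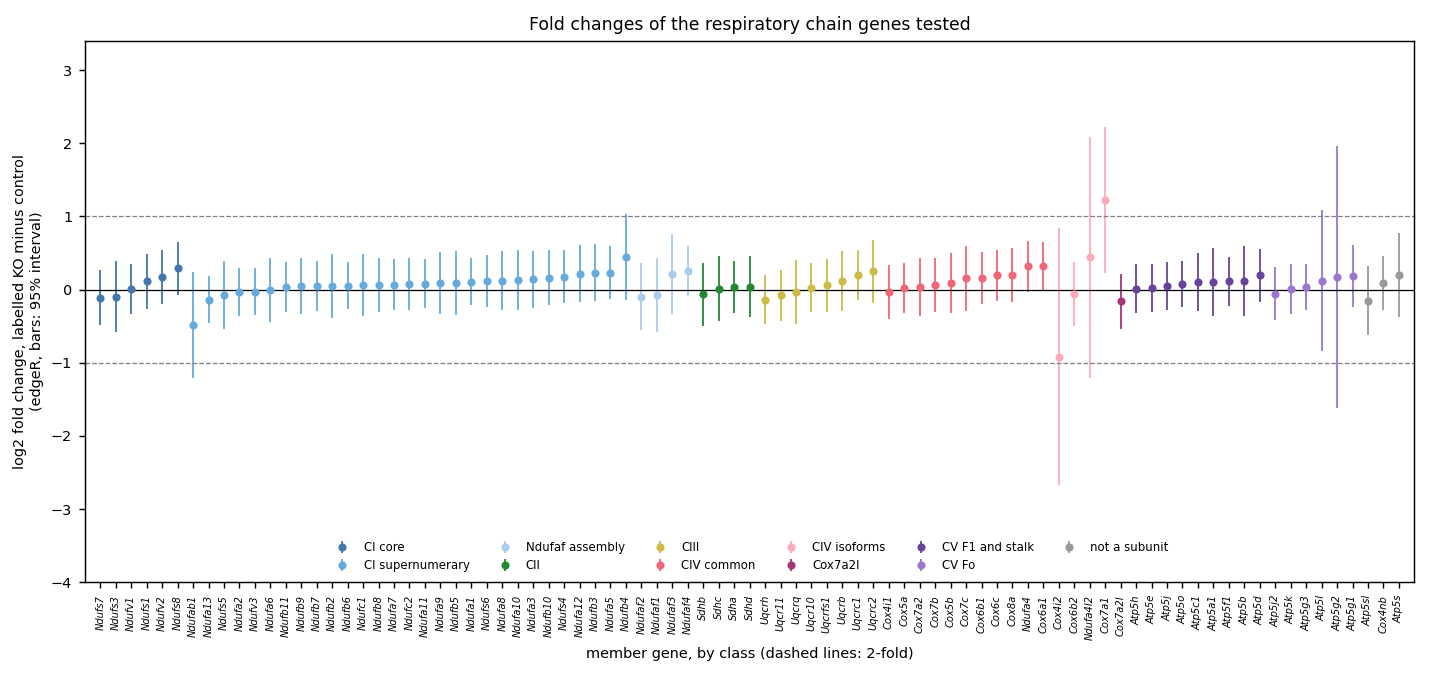
Log2 fold change of the labelled knockouts over the controls for 85 of the 86 genes tested (points, edgeR) with 95% intervals (bars), ordered by class, dashed lines at 2-fold. Points lie close to 0 apart from low-count genes, and Cox7a1 at 1.23 is highest.

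Complex I showed no called gene among 36 tested, with a median log2 fold change of 0.07 and 27 values above 0. Ndufs8, an iron-sulfur core subunit, had the smallest p of the core, at 21.06 and 21.04 CPM for the control pair, against 24.5 and 27.0 CPM for the labelled knockouts. Its groups did not overlap, yet its log2 fold change of 0.29 ± 0.15 (SE) had an edgeR adjusted p of 0.755. Ndufv2, a core subunit of the NADH-oxidising part, stood at 66.02 and 67.91 CPM against 83.4 and 67.2 CPM, with overlapping groups and a log2 fold change of 0.17. Ndufs7, also of the core, had a log2 fold change of -0.11. The 7 core genes were split, with 4 values above 0, 3 below and a median of 0.01. Among accessory subunits Ndufb4 had 5.83 and 5.96 CPM against 9.35 and 6.645 CPM, on 147 to 349 counts. Its log2 fold change was 0.45 ± 0.25 (SE), and 37.0% of its GENCODE transcript was shared sequence. Ndufab1 went the other way, at 3.02 and 3.49 CPM against 2.46 and 2.16 CPM (log2 fold change -0.48 ± 0.31 SE). Neither passed the test (edgeR adjusted p = 0.774 and 0.829). Ndufa5 and Ndufa13 had log2 fold changes of 0.23 and -0.14. The 4 assembly factors named Ndufaf, which build complex I and are not part of it, were split, with Ndufaf4 at 0.25 and Ndufaf3 at 0.21 above 0 and Ndufaf2 and Ndufaf1 at -0.09 and -0.08.

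Complex II genes had the narrowest range of fold changes, although its libraries within a group differed more than those of the other complexes (median SD of log2 CPM 0.22). Sdha stood at 176 and 189 CPM for the control pair, against 199 and 175 CPM for the labelled knockouts. Sdhb, the iron-sulfur subunit, stood at 91.7 and 119 CPM against 111 and 90.4 CPM. The groups overlapped in both genes, and labelled knockout replicate 2 was the lowest library for all 4 complex II genes. Sdhc and Sdhd, which anchor the complex in the membrane, had log2 fold changes of 0.01 and 0.04 with 95% intervals of -0.43 to 0.45 and -0.38 to 0.45. All 4 intervals lay within 1.5-fold.

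Complex III genes had a median log2 fold change of 0.04 over 8 tested. Uqcrc2, a core protein, was at 175 and 213 CPM against 256 and 205 CPM, so that control replicate 2 exceeded labelled knockout replicate 2 (log2 fold change 0.25 ± 0.18 SE, edgeR adjusted p = 0.871). Uqcrc1, the other core protein, had separate groups, 95.1 and 109 CPM against 119 and 115 CPM. Uqcrh had separate groups in the opposite order, 152 and 158 CPM against 148 and 135 CPM. Neither passed the test (edgeR adjusted p = 0.871 for Uqcrc1 and 0.907 for Uqcrh).

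Complex IV had the largest median of the complexes, 0.16 over 15 genes tested, and 10 of its 11 common subunit genes had values above 0. Cox6a1, a small subunit of the dimer interface, stood at 41.2 and 36.6 CPM for the control pair, against 49.5 and 47.5 CPM for the labelled knockouts, a log2 fold change of 0.32 ± 0.14 (SE). Ndufa4, first assigned to complex I and later to complex IV, stood at 149 and 160 CPM against 204 and 180 CPM, also 0.32 ± 0.15 (SE). The groups did not overlap in either gene, and neither passed the test (edgeR adjusted p = 0.695 and 0.720). Both labelled knockouts exceeded both controls in 7 of the 11 common subunit genes, namely Cox6a1, Ndufa4, Cox6c, Cox8a, Cox6b1, Cox7c and Cox5b. For Cox8a and Cox5b the gap between the nearest libraries was under 0.2 CPM, with 72.9 against 73.0 CPM and 13.5 against 13.6 CPM. Over all genes tested both labelled knockouts lay above both controls in 18.8% and below both in 17.4%. Of all 86 members tested, 22 (25.6%) had them above and 5 (5.81%) below. Cox7a2l, known as a factor for supercomplexes of complexes III and IV, had overlapping groups and a log2 fold change of -0.16. Its function in these mice was not examined.

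Complex V genes had a median log2 fold change of 0.10 over 15 tested. Atp5b stood at 892 and 980 CPM against 1036 and 999 CPM, and Atp5a1, the alpha subunit, at 660 and 727 CPM against 806 and 682 CPM. Atp5d, the delta subunit of the central stalk, had the smallest p of this complex (log2 fold change 0.19 ± 0.15 SE, edgeR adjusted p = 0.886). In the membrane part, Atp5g1 and Atp5j2 had log2 fold changes of 0.19 and -0.06. Atp5k, at 43.1 and 45.8 CPM against 47.3 and 41.9 CPM, had a value of 0.01.

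The sign of these small values depended on how libraries were scaled. With TMM factors 65 of 86 members (75.6%) had values above 0, against 48.0% of all genes tested. With RLE factors there were 63, with upper-quartile factors 50 (58.1%) and with library totals 41 (47.7%), where the median of the members was -0.01. For complex V the count went from 14 of 15 with TMM to 8 with library totals, for complex I from 27 of 36 to 17, and for complex II from 3 of 4 to 0. Measured against the median of all genes under the same scaling, the members' median was higher by 0.09 with TMM and by 0.08 with library totals.

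Taken as 1 set, the members differed between libraries of a group as well as between groups. Labelled knockout replicate 1 was the highest library for 57 of the 86 members (66.3%), against 28.7% of all genes tested. Relative to each gene's mean, the members' median log2 CPM stood at -0.09 and 0.01 for the controls, and at 0.11 and -0.07 for labelled knockout replicates 1 and 2. The labelled knockouts thus differed from each other by a median of 0.18, and the controls by 0.08, beside 0.07 between the groups. The value between groups compares 2 libraries with 2, so it is not a like measure to a gap between single libraries. For complex V the median was 0.10 between the groups, 0.06 between the labelled knockouts and 0.04 between the controls. In complex IV the median of 0.16 between the groups exceeded the 0.05 between the controls and was close to the 0.16 between the labelled knockouts. The same highest library held for 24 of 36 complex I, 3 of 4 complex II, 5 of 8 complex III, 11 of 15 complex IV and 11 of 15 complex V genes. The summed level of all members was 6956 and 7462 CPM for the control pair, against 8057 and 7119 CPM for the labelled knockouts.

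One property of the libraries ran in the same order. The deposited RPKM imply a library total for each sample, which can be set beside the sum of its transcript counts. Relative to control replicate 1, the transcript counts per unit of that total were 1.14 in labelled knockout replicate 2, 1.19 in control replicate 2 and 1.28 in labelled knockout replicate 1. The members' medians rise through the libraries in that order, and summed endothelial markers, at 9.36, 6.64, 3.37 and 2.65 CPM, fall. Summed ductal markers rise, at 12874, 13504, 15355 and 16764 CPM, but not steadily without Krt18. The acinar, endocrine, fibroblast and leukocyte sums do not follow the order, with leukocyte genes at 13.1, 8.42, 13.7 and 18.3 CPM. The part of this property in the result was not tested. Without labelled knockout replicate 1 the members' median log2 fold change was -0.06, equal to that of all genes (-0.06), and without labelled knockout replicate 2 it was 0.16 against -0.06 for all genes.

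**Figure D3:**
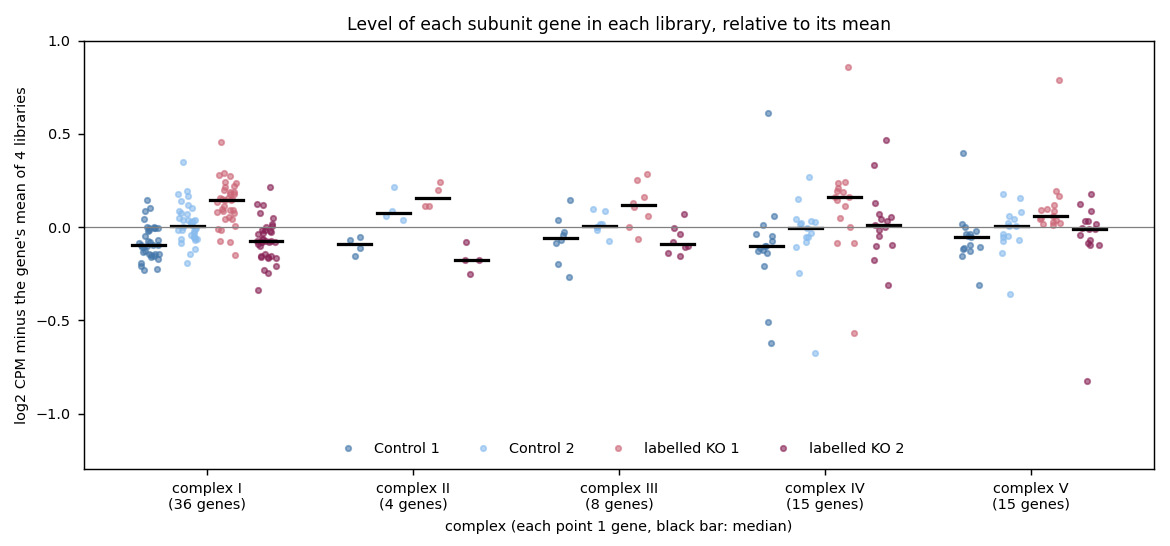
Log2 CPM of each subunit gene in each library minus its mean over 4 libraries, by complex, with black bars at the medians. Labelled knockout replicate 1 has the highest median in every complex, and labelled knockout replicate 2 lies below control replicate 2 in complexes I, II, III and V.

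The highest and the lowest log2 fold change of the members tested were in tissue and state isoforms of complex IV, both on low counts and not called by edgeR. Several complex IV subunits exist as a common form and as a form known from heart and skeletal muscle, lung, testis or hypoxic cells, and the ductal cells carried the common form in each of 8 pairs. Cox4i1 exceeded Cox4i2, the lung and hypoxia form, by 749-fold in mean RPKM, and Ndufa4 exceeded Ndufa4l2, a target of hypoxia-inducible factor, by 640-fold. The muscle forms Cox6a2 and Cox8b and the testis forms Cox7b2 and Cox8c had 0 to 6 counts in any library. These 4 genes are the members that the filter on low counts left untested. Cox4i2 was at 17, 12, 10 and 10 counts, in the order controls and labelled knockouts, and its log2 fold change of -0.92 ± 0.75 (SE) had an edgeR adjusted p of 0.891. Counts of that size carry a large counting error.

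Cox6b2, known as the testis form of Cox6b1, was the most abundant of the isoforms. It was listed at 13.6 and 14.1 RPKM for the control pair, against 13.7 and 14.2 RPKM for the labelled knockouts, on 250 to 357 counts, with 0.0% of its sequence shared with another gene. Its level was thus nearly the same in all 4 libraries (log2 fold change -0.06 ± 0.19 SE, edgeR adjusted p = 0.971). It made up 3.60% to 4.79% of the summed RPKM of the Cox6b pair.

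Cox7a1, the heart and skeletal muscle form of Cox7a2, had the smallest p of all members. Its counts were 30 and 24 for the control pair, against 106 and 61 for the labelled knockouts, or 1.09 and 0.973 CPM against 2.84 and 1.97 CPM. Both labelled knockouts lay above both controls. The log2 fold change was 1.23 ± 0.43 (SE), 2.34-fold with a 95% interval of 0.23 to 2.22 on the log2 scale, and it missed the threshold (edgeR adjusted p = 0.508). Cox7a1 was 1.57% and 1.35% of the summed RPKM of the Cox7a pair in the controls and 3.403% and 3.06% in the labelled knockouts. Cox7a2, the common form, stood at 141 and 147 CPM against 166 and 128 CPM, with overlapping groups. Only limma-trend on log2(RPKM + 1), restricted to transcripts with at least 1 RPKM in 2 libraries, called Cox7a1 (adjusted p = 0.0099). The share of all transcripts called in that setting is not given here, so the call cannot be set beside it. Over the other alternatives on all 4 libraries Cox7a1 was not called. Its adjusted p there ran from 0.130 (limma-trend on log2(RPKM + 0.1)) to 0.721 (edgeR without a count filter).

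**Figure D4:**
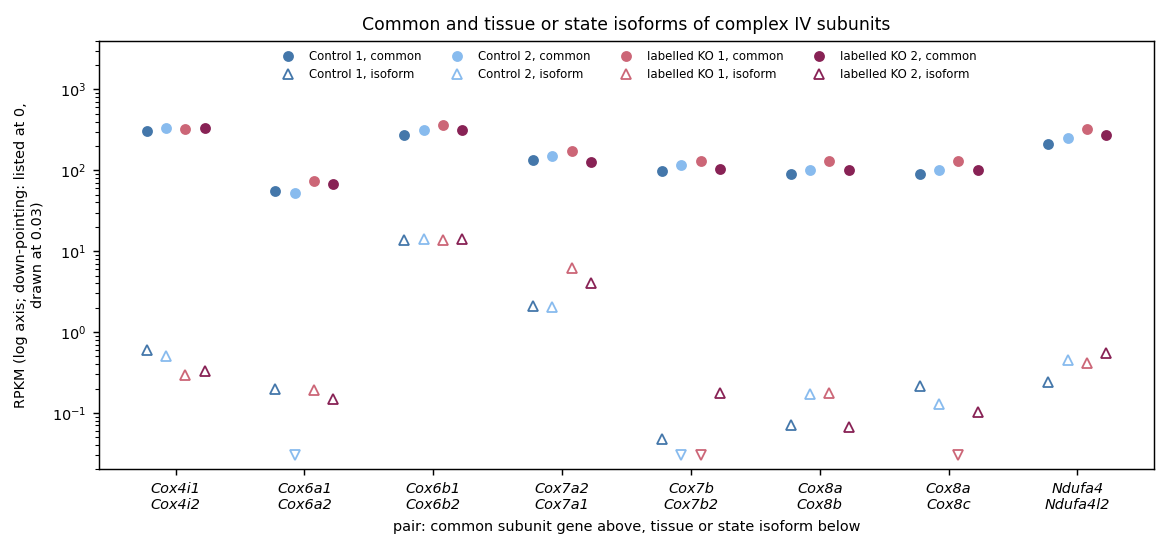
RPKM (log axis) of the common gene (filled circles) and the tissue or state isoform (open triangles) in 8 pairs, by library, with values listed at 0 drawn at 0.03. The common gene is higher in each library, Cox6b2 is level near 14 RPKM, and Cox7a1 is at 6.14 and 4.05 RPKM in the labelled knockouts against 2.11 and 2.03.

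**Figure D5:**
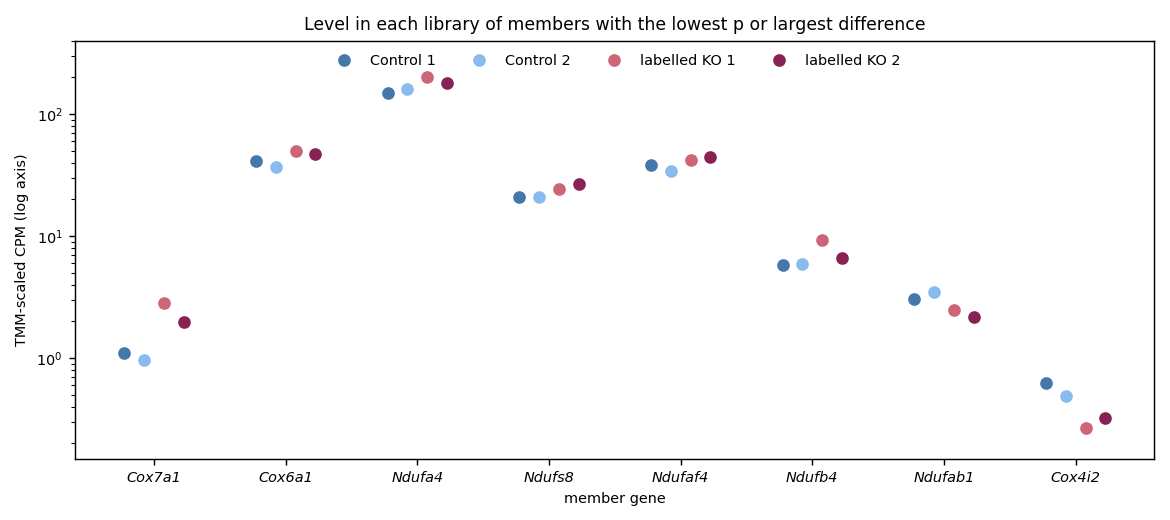
TMM-scaled CPM (log axis) by library for 8 members with small p or wide differences, 1 point per library. Cox7a1 shows the widest separation of the groups, and Ndufab1 and Cox4i2 lie lower in both labelled knockouts.

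The promoters of these genes are known to bind NRF1 and the ETS factor GABP, which drive many nuclear genes of respiration. RefSeq promoter sequences (build GRCm38.p6, 250 bases before to 50 after the start) were found for 74 of the 90 members, 80 promoters in all, and searched on both strands. The 10-base NRF1 palindrome, in capitals in Cox6a1 and Atp5k as printed here, was in 6 member promoters (7.5%), against 0.97% of all 32851 promoters and 1.73% of the promoters of genes tested here. The ETS motif CCGGAAG was in 17 (21.2%), against 8.86% and 14.95%. The estrogen-related receptor motif TCAAGGTCA was in 2 (2.5%), against 0.42% and 0.26%, and the 11-base YY1 motif in 6 (7.5%), against 0.63% and 1.23%. None of the motifs overlapped another in the promoters printed here. Shown are the 250 bases before the start, 5′ to 3′ on the strand of the gene, with the motifs found in capitals. Cox6a1 and Ndufa4 had the smallest p of the common genes, and Cox6a1 is shown as one that holds both the NRF1 and the ETS motif before its start. Atp5k holds the NRF1 motif before its start and the ETS motif just after it, outside the bases printed, Cox6b1 is the highest of the common complex IV genes with an entry and holds the ETS motif, and the pair Cox7a2 and Cox7a1 held no match.
Cox6a1 (chr5:115348959-115349208, minus strand): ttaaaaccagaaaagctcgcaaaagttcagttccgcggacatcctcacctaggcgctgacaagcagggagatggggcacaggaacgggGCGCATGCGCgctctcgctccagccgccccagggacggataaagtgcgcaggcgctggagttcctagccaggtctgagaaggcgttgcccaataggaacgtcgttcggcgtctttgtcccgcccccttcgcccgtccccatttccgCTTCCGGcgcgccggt
Atp5k (chr5:108434400-108434649, minus strand): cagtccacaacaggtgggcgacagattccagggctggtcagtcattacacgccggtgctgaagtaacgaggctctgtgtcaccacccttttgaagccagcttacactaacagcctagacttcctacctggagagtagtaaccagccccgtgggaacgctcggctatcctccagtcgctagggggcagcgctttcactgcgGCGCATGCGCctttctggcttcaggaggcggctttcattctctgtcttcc
Cox6b1 (chr7:30626115-30626364, minus strand): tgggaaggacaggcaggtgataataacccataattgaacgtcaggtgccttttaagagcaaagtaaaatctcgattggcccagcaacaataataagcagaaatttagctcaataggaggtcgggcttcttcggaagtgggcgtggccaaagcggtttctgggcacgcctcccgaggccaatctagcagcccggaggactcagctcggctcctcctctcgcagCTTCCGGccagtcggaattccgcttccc
Cox7a2 (chr9:79759854-79760103, minus strand): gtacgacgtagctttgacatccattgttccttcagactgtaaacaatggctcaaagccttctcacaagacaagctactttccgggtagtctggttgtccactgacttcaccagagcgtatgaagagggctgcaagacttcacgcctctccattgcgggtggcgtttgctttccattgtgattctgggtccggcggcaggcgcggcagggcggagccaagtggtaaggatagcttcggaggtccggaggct
Cox7a1 (chr7:30183921-30184170, plus strand): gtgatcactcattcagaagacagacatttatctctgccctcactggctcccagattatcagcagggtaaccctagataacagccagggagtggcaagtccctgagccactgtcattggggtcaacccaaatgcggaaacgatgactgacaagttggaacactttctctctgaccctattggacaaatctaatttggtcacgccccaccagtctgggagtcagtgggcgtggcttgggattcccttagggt
Cox6a1 and Cox6b1 carry the ETS letters close to the start on the minus-strand spelling, CTTCCGG. These 2 genes had log2 fold changes of 0.32 and 0.16, Atp5k of 0.01, Cox7a2 of 0.03 and Cox7a1 of 1.23. A match describes the sequence only.

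The regulators of this gene set and neighbouring mitochondrial genes were likewise without a call. Of 22 regulators of mitochondrial biogenesis tested, edgeR called 0, 8 had values above 0 and the median was -0.07. Tfb1m, a mitochondrial rRNA methyltransferase, stood at 3.13 and 3.45 CPM against 5.57 and 4.645 CPM, with separate groups (log2 fold change 0.64 ± 0.27 SE, edgeR adjusted p = 0.649). Esrra, an estrogen-related receptor that drives respiratory genes, stood at 66.6 and 65.3 CPM against 46.7 and 64.0 CPM, and without labelled knockout replicate 1 its log2 fold change was -0.07. That library was also the one where the respiratory genes were highest. Without labelled knockout replicate 2 the Esrra value was -0.52.

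Of 28 assembly factors outside the Ndufaf names, 17 had values above 0 and none was called. Cox17, the copper chaperone of complex IV, stood at 39.3 and 32.8 CPM against 28.2 and 20.3 CPM, with a log2 fold change of -0.57 ± 0.20 (SE) and an edgeR adjusted p of 0.512. Its groups did not overlap, while the complex IV subunit genes lay mostly above 0. Cox10, from the same list, had separate groups in the opposite order, at 4.34 and 3.81 CPM against 5.95 and 5.19 CPM (log2 fold change 0.45 ± 0.25 SE, edgeR adjusted p = 0.774). Without labelled knockout replicate 1 the Cox17 value was -0.86, in a fit with only labelled knockout replicate 2 in its group. The 8 electron carriers and other subunits tested had values above 0 throughout and a median of 0.11, with Etfdh, which passes electrons from fat oxidation to the chain, at 0.27.

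Genes of the TCA cycle and pyruvate dehydrogenase, which supply the chain with NADH and succinate, had the largest median of these lists, 0.14 over 18 tested, with 16 values above 0 and 0 calls. Ogdh, of the oxoglutarate dehydrogenase complex, stood at 92.3 and 101 CPM against 125 and 121 CPM (log2 fold change 0.35 ± 0.14 SE, edgeR adjusted p = 0.612). Pdha1, of pyruvate dehydrogenase, stood at 203 and 232 CPM against 319 and 261 CPM, and Suclg2, of succinyl-CoA ligase, at 29.7 and 34.7 CPM against 46.1 and 39.0 CPM. All 3 had separate groups, and labelled knockout replicate 1 was the highest library for 15 of the 18 genes. Pdha1 and Suclg2 had log2 fold changes of 0.42 and 0.40 (edgeR adjusted p = 0.644 and 0.626).

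Members on the X chromosome were looked at separately, because 1 library came from a female by its Xist count. Ndufa1 stood at 56.8, 60.1, 64.6 and 61.4 CPM, Ndufb11 at 26.3, 25.8, 26.2 and 27.3 CPM and Cox7b at 139, 154, 167 and 139 CPM, in the order controls and labelled knockouts. The female library, the last of each, was within the range of the others or within 1 CPM of it. The symbol rule also took in 3 genes that are not subunits, Atp5s, Atp5sl and Cox4nb, whose log2 fold changes were 0.20, -0.15 and 0.09, none called.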

How the data were processed

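RNA of 4 ductal cell cultures, each from 1 animal, had been isolated with a Qiagen RNeasy kit and sequenced from Illumina TruSeq v2 libraries, per the labels' protocols. The authors deposited raw counts per RefSeq transcript and RPKM values of the same transcripts. Build mm9 and edgeR are named in the submitters' processing notes; aligner, counting program and strand handling are not given in the sources used here. Depth was 25257778 to 39582625 counts per library.

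Counts of all 28644 transcripts were tested with edgeR 4.0.16 (R 4.3.3): filterByExpr (minimum count 10, total 15), TMM factors, quasi-likelihood F test with legacy = FALSE, Benjamini-Hochberg adjustment over 20949 transcripts, threshold 0.05. Alternatives used DESeq2 1.42.0, limma 3.58.1 on log2(RPKM + 1) or log2(RPKM + 0.1), other factors and filters, 1 transcript or summed counts per gene, each library left out, and, added after seeing the data, no X and Y genes. Log2 deviations of a library used CPM + 0.01. With 2 animals a group, an exact permutation test could not go below p = 0.333, so none was used. Shared sequence and exon overlap came from GENCODE M21 (GRCm38), promoters from RefSeq, all matched by accession or gene, not by mm9 coordinates. The edgeR script was tested on simulated data.

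Members and lists were chosen with earlier results of these data known. Named were, per class, the 2 highest by RPKM and up to 2 with the smallest p in each direction, all complex II genes, isoform pairs, X-linked and untested members, and up to 3 genes of each other list; genes with shared sequence, wide intervals or separate groups are named in addition, after their values were seen. A gene that this rule picks is not reported here by name.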

Additional observations from a re-analysis of the deposited data

How the results depend on the processing

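No paired analysis was possible because the labels number the 4 samples in 1 series, so the groups share no replicate numbers. Over 16 alternatives, 49 named members tested kept their side of the threshold, except Cox7a1, which limma-trend on log2(RPKM + 1) with at least 1 RPKM in 2 libraries called, so that members called higher went from 0 to 1 there. The share of all transcripts called in that limma-trend setting is not given here. Members called lower were 0 in each alternative that kept all 4 libraries. The complex V median of 0.10 was 0.0512 with upper-quartile factors and 0.0252 with library totals, a move larger than the spread of that median between libraries of a group (SD 0.0463). With upper-quartile factors and library totals the medians changed sign in complex II (-0.0293 and -0.0555) and complex III (-0.0076 and -0.0335), and with library totals also in complex I and over all members (both -0.0106). The complex IV median of 0.16 was 0.0788 with library totals. These moves were within the same spread of each list.

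With each library left out in turn, a lone library is assumed to vary like the other group, so only effect sizes are given. Medians then ranged from -0.0565 to 0.158 for all members, -0.0566 to 0.169 for complex I, -0.22 to 0.15 for complex II, -0.10 to 0.14 for complex III, 0.0503 to 0.216 for complex IV and -0.0104 to 0.131 for complex V. The lowest value of each came without labelled knockout replicate 1, and the cause was not tested. Hhex ranged from 0.12 without labelled knockout replicate 2 to 0.84 without labelled knockout replicate 1. Without labelled knockout replicate 1, 34 of the 86 members changed sign.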

Other observations

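Of the 90 members, 7 had several transcripts in the tables. For 6 of them the counts of the other transcripts were 97.9% to 100.2% of those of the main one in every library, so they hold mostly the same reads. Ndufv3, a flavoprotein-fraction subunit of complex I, differed. Its second transcript had 911 and 870 counts in the controls and 1210 and 1069 in the labelled knockouts, which is 76.6%, 79.2%, 75.1% and 79.96% of the main transcript. The 2 transcripts had log2 fold changes of -0.03 each. Reads particular to each form were not separated, so a shift between the forms was not tested.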
